A study of Homo sapiens with 8 samples.

Results

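The nuclear-encoded subunits of the respiratory chain and ATP synthase were taken from the table of 26716 genes as the mRNA rows whose symbols follow the subunit names of complexes I to V: NDUF with the letter A, AB, B, C, S or V and a number, SDHA to SDHD, UQCR, CYC1, COX4 to COX8, and ATP5. This gave 87 genes: 37 of complex I, 4 of complex II, 10 of complex III, 16 of complex IV and 20 of complex V. NDUFA4, which carries a complex I name but is known to sit in complex IV, was counted there. Of the 87, 83 passed the filter on low counts. COX6B2, COX7A1, COX8C and ATP5MGL did not, and the first 3 of these are known as isoforms of testis or muscle. The libraries were made from poly(A) RNA of HepG2, a cell line from a human hepatocellular carcinoma, 72 h after transfection, with 2 libraries in each of 4 groups. The NC group received a control mimic at 1 nM and a control siRNA at 30 nM. The miR-552-3p group received the miR-552-3p mimic (1 nM) with the control siRNA (30 nM). The siIPO8-NC group received an siRNA to importin8 (30 nM) with the control mimic (1 nM), and siIPO8-miR-552-3p received both active agents at those doses. Where values are given library by library, these last 3 groups are called "with the mimic", "with importin8 siRNA" and "with both agents", in that order, and replicate 1 stands before replicate 2. All groups share HepG2 and the transfection of a mimic and an siRNA, and the labels name no untransfected cells.

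Complexes I to IV pass electrons from NADH or succinate to oxygen, and complexes I, III and IV pump protons across the inner mitochondrial membrane while doing so. Complex V, the ATP synthase, uses the returning protons to make ATP. Most subunits are encoded in the nucleus and imported, and a smaller core is encoded by mitochondrial DNA, which was not analysed here. Hepatocytes depend on this chain for gluconeogenesis and urea synthesis, whereas hepatoma cells also make much of their ATP by glycolysis.

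The guide strand that the mimic stands for is shown because its seed sets which 3′ UTR sites can pair with it. The mature sequence from RefSeq (GRCh38.p14, chr1:34669614-34669634, minus strand) has 21 bases, with the seed (bases 2 to 8) in capitals.
hsa-miR-552-3p: aACAGGUGacugguuagacaa
The 3′ UTRs of members were searched for the matching sites CACCTGT and ACCTGTA on the transcript strand, which overlap in an 8mer. Among the 83 tested members, 11 (13.3%) held at least 1 site in a GENCODE 3′ UTR, against 20.8% of the 13777 tested genes with such a UTR. The members' UTRs were shorter, with a median of 202 bases against 922. None of the 14 members that fell with the mimic under control siRNA held a site, and 5 of the 36 that rose did. Only the transcript with the longest coding sequence was searched for each gene, and it need not be the one measured. ATP5F1E and ATP5MC3, which rose and held a site, had UTRs of 3378 and 2030 bases. Their whole transcripts implied by count and FPKM had 409 and 719 to 775 bases. The 83 members include NDUFA10 and ATP5MC2, whose UTR had 0 bases. Examples of 8mer sites, the longest matches among the members, are printed with 10 bases on either side (GRCh38, transcript strand, site in capitals).
NDUFA9, site a, chr12:4688347-4688374: tggtggcacgCACCTGTAgtctcagtta
NDUFA9, site b, chr12:4690567-4690594: tggtggggccCACCTGTAtatagtccca
COX7A2L, chr2:42349954-42349981: gtacaatataCACCTGTAtatccttcac
NDUFA9 rose with the mimic under control siRNA, by 0.49 on the log2 scale, and COX7A2L (0.08) did not pass the test. These calls, and the rises and falls set beside the sites above, rest on counts. In deposited FPKM, COX7A2L was lower with the mimic, by log2 ratios of -0.17 under control siRNA and -0.29 under importin8 siRNA. Both changes passed the test on that scale, as given below. The UTRs searched had 7209 bases for NDUFA9 and 1881 for COX7A2L. Count and FPKM together implied whole transcripts of only 1618 to 1628 and 1265 to 1698 bases over the 4 groups. The measured transcripts may thus lack these sites, which was not tested. A match of letters describes the sequence and does not show pairing.

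RefSeq promoters (250 bases before to 50 bases after the start, GRCh38.p14) were found for 69 of the 87 members and for 12682 of the 17715 tested genes. On either strand, the motif of the respiratory factor NRF1 was present in 24.6% of the members' windows and 10.8% of those of all tested genes. The ETS motif CCGGAAG, which the regulator GABP can bind, was present in 29% against 17.6%. The YY1 motif AAGATGGCG was present in 11.6% against 3.47%. The ERR motif TCAAGGTCA was present in 1.45% against 0.197%, which among the members is 1 window of 69. The seed letters ACAGGTG occurred in 4.35% of the members' windows and 3.09% of all. The windows of 3 genes that moved in clearly different ways are shown, with the motif in capitals: UQCRQ, with more reads in both importin8 siRNA groups, UQCR10, lower in the 3 active groups, and COX4I1, lower with the mimic.
UQCRQ, chr5:132866392-132866691, plus strand: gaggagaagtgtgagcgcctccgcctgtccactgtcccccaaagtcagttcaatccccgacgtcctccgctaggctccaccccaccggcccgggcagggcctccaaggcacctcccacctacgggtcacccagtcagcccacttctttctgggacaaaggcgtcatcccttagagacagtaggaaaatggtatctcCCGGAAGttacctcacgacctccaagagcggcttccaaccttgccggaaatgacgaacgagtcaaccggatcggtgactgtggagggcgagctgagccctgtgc
UQCR10, chr22:29767119-29767418, plus strand: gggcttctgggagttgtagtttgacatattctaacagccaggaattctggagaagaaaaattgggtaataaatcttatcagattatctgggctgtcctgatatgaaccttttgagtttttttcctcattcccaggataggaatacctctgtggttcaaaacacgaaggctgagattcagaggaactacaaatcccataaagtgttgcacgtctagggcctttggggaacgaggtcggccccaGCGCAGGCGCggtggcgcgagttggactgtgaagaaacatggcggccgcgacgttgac
COX4I1, chr16:85799445-85799744, plus strand: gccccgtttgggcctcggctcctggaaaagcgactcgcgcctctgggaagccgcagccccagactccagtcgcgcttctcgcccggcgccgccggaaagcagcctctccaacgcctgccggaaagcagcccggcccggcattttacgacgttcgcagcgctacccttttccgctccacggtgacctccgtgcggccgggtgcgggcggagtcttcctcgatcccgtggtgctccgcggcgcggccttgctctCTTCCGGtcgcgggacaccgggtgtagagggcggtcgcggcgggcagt
UQCR10 carries an NRF1 motif that starts 8 bases before the transcription start, UQCRQ an ETS motif 54 bases before it, and COX4I1 an ETS motif on the opposite strand just after it.

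Each library summed to 21608563 to 22102373 expected counts. CPM values here are counts relative to the TMM-scaled library size, and 3 counts correspond to 0.131 to 0.144 CPM. Hepatocyte and hepatoma markers were present in every library (12 of 12 listed genes, summed level 49441 to 75249 CPM). IPO8, the siRNA target, had 34.7 and 33.3 CPM in the NC libraries, 25.4 and 24.6 with the mimic, 11.3 and 11.5 with importin8 siRNA, and 7.65 and 8.30 with both agents. The siRNA groups lay below the others without overlap (log2 fold change -1.57 with the control mimic and -1.65 with the mimic), and the mimic itself lowered IPO8 by 0.44 and 0.52 on that scale, with control and importin8 siRNA respectively (adjusted p = 0.000826 and 0.00224). The members' levels also moved within groups: 72 of 83 members were higher in replicate 1 than in replicate 2 of NC, by a median of 0.16 (log2), and 75 of 83 in miR-552-3p, by 0.12, whereas 53.9% and 50.1% of all tested genes were. In siIPO8-NC 47 members were higher in replicate 1, and in siIPO8-miR-552-3p 33. NC replicate 2 had the lowest summed level of the members (4484 CPM, against 5075 to 5927 in the other 7 libraries), and the part of this within-group shift in the results below was not tested beyond leaving out each library.

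Compared per transcript length, in the deposited FPKM averaged over the 8 libraries, the members were abundant, with a median level of 49.8 FPKM against 4.04 for all tested genes. The median level was 40.2 FPKM for complex I, 44.5 for II, 82.0 for III, 101 for IV and 57.1 for V. The highest was ATP5F1B, the catalytic beta subunit of ATP synthase, at 277 FPKM, and the highest of the other complexes were COX6A1 (234), UQCRH (133) and NDUFAB1 (133). At the low end stood the retrocopy UQCRHL, the readthrough gene ATP5MF-PTCD1, COX4I2 and NDUFA4. NDUFA4 had only 0.900 to 2.16 CPM and 0.108 FPKM, so its row says little about that subunit.

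**Figure D1:**
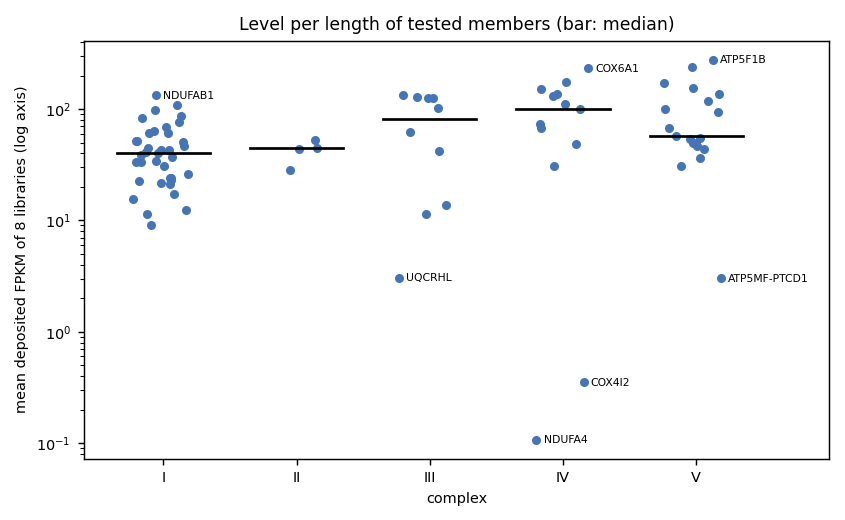
Mean deposited FPKM of the 8 libraries (log axis) for each tested member, by complex, with a bar at the median of each complex. Complex IV has the highest median (101 FPKM) and complex I the lowest (40.2 FPKM); UQCRHL, ATP5MF-PTCD1, COX4I2 and NDUFA4 lie far below the rest.

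The mimic under control siRNA (miR-552-3p against NC) moved the most members, and more of them up than down. By the quasi-likelihood test of edgeR, with p-values adjusted by Benjamini and Hochberg over all 17715 tested genes, 36 members rose and 14 fell (60.2% of 83; 58.4% of all tested genes were called, 28.9% higher and 29.5% lower). Their median log2 fold change was 0.19, against -0.01 for all tested genes. The changes were small: of the called members, 3 changed at least 2-fold, namely NDUFV2, NDUFC2 and the sparsely counted COX4I2. Among all 17715 tested genes, 4432 were called with a change of that size. COX7A2 also changed by more than 2-fold (1.10 on the log2 scale) but was not called. By complex, 19 rose and 5 fell of 37 in complex I, 2 and 1 of 4 in II, 4 and 2 of 10 in III, 2 and 2 of 13 in IV, and 9 and 4 of 19 in V. Leaving out miR-552-3p replicate 1 reduced the members called higher to 23, and leaving out miR-552-3p replicate 2 reduced those called lower to 9. Without NC replicate 2, the library with the lowest members, 25 rose and 14 fell, and the median was 0.12. It was 0.26 without NC replicate 1 and 0.12 with library totals alone or on log2(FPKM + 0.1). The median of all tested genes was -0.07 with library totals alone and -0.002 on log2(FPKM + 0.1).

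Under importin8 siRNA the mimic (siIPO8-miR-552-3p against siIPO8-NC) moved few members. Here 6 rose and 3 fell (10.8%; 31.7% of all tested genes were called, 15% higher and 16.7% lower), with a median of 0.08. Those that rose included NDUFB2, NDUFS5, SDHB, CYC1 and UQCRQ, and those that fell were NDUFC2, COX4I1 and ATP5MF-PTCD1. The balance of this small set turned with the scaling: with library totals alone 2 rose and 7 fell, and on log2(FPKM + 0.1) 4 rose and 8 fell, so that higher calls made up 66.7%, 22.2% and 33.3% of the calls. The median of the members was 0.01 under either of these scalings, and that of all tested genes -0.08 and -0.07. Leaving out 1 library gave 12 and 5 (NC replicate 1), 11 and 5 (NC replicate 2), 3 and 1 (siIPO8-NC replicate 1), 1 and 3 (siIPO8-NC replicate 2) and 1 and 2 (either siIPO8-miR-552-3p library). Only the fall of NDUFC2 passed the test in all 16 alternatives run.

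Importin8 siRNA with the control mimic (siIPO8-NC against NC) also moved more members up than down. There were 27 that rose and 7 that fell (41%; 47% of all tested genes were called, 25.4% higher and 21.6% lower), with a median of 0.18. Genes with a mean of at least 100 counts leaned upward too, with 35.8% higher and 25.1% lower (median 0.09). Of the 80 members with that count, 33.8% were higher and 8.75% lower (median 0.18). All 3 complex II calls and all 3 complex IV calls were rises, complex V had 8 rises and 1 fall, complex I 11 and 3, and complex III 2 and 3. Members called lower numbered 3 without siIPO8-NC replicate 1 and 4 without either siIPO8-miR-552-3p library. The median rise was 0.26 without NC replicate 1 and 0.09 without NC replicate 2, and the members called higher were 39 and 21.

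Importin8 siRNA in the presence of the mimic (siIPO8-miR-552-3p against miR-552-3p) raised 22 members and lowered 7 (34.9%; 33.5% of all tested genes were called, 17.3% higher and 16.2% lower), with a median of 0.10. On log2(FPKM + 0.1) 16 rose and 9 fell, so that the share of higher calls was 64% in place of 75.9%. Complex V contributed 8 of the rises, complexes I and III 4 each, and complexes II and IV 3 each. Leaving out miR-552-3p replicate 1 left 14 rises and 1 fall, miR-552-3p replicate 2 left 9 and 5, siIPO8-miR-552-3p replicate 1 left 10 and 1, and siIPO8-miR-552-3p replicate 2 left 10 and 3. The median was 0.01 without miR-552-3p replicate 2 and 0.16 without miR-552-3p replicate 1.

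**Figure D2:**
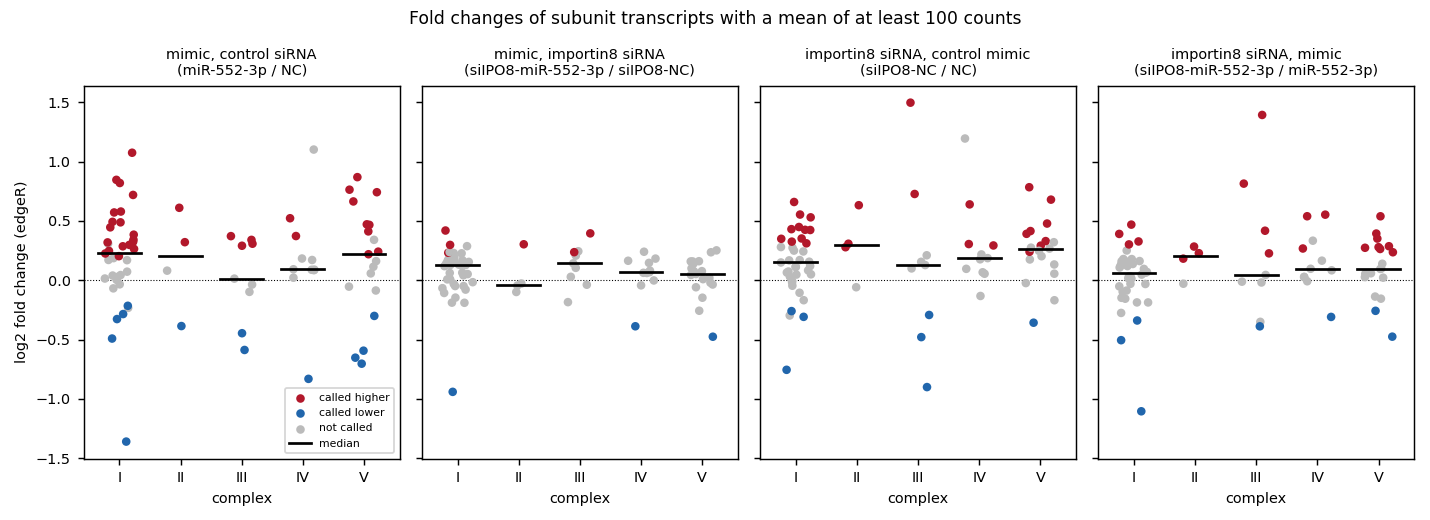
Log2 fold changes (vertical axis) of the 80 members with a mean of at least 100 counts, by complex, in the 4 comparisons, coloured by call, with bars at the medians. Called members lie on both sides of 0 in the first panel (36 higher, 13 of the 14 lower ones shown), and few are called in the second (6 higher, 3 lower).

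The share of calls can also be read among genes with more reads. Among the 80 members with a mean of at least 100 counts, 61.3%, 11.2%, 42.5% and 36.2% were called in the 4 comparisons as ordered above, against 71.3%, 42.5%, 60.9% and 44.6% of the 11484 genes with that count. By direction, 45%, 7.5%, 33.8% and 27.5% of these members were higher, against 36.9%, 20.4%, 35.8% and 24.8% of those genes. Lower were 16.2%, 3.75%, 8.75% and 8.75% of the members, against 34.4%, 22.1%, 25.1% and 19.8%. The median absolute log2 fold change with the mimic under control siRNA was 0.31 for the 83 members and 0.59 for all tested genes. The libraries of the compared groups did not overlap in 60, 54, 60 and 48 of the 83 members, against 78.5%, 68%, 73.5% and 67.8% of all tested genes. There were 21 members that no comparison called, a count not made over all tested genes. Among them were NDUFS1, the largest iron-sulfur core subunit of complex I, and ATP5PO, the stalk subunit OSCP. COX5B, COX6A1, COX6B1, COX7B and COX7C of complex IV were others. NDUFS1 had 142 and 142 CPM in the NC libraries, 145 and 147 with the mimic, 147 and 147 with importin8 siRNA, and 165 and 157 with both agents. Those 8 values lie within a narrow band, with the 2 libraries of the double treatment on top. Per length NC was lowest: the deposited FPKM was 36.0 and 33.7 in NC and 40.8 and 40.5 with the mimic. It was 41.6 and 41.1 with importin8 siRNA, and 44.4 and 43.6 with both agents. The transcript length implied by count and FPKM was 4199 bases in NC and 3535 to 3608 in the other groups.

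**Figure D3:**
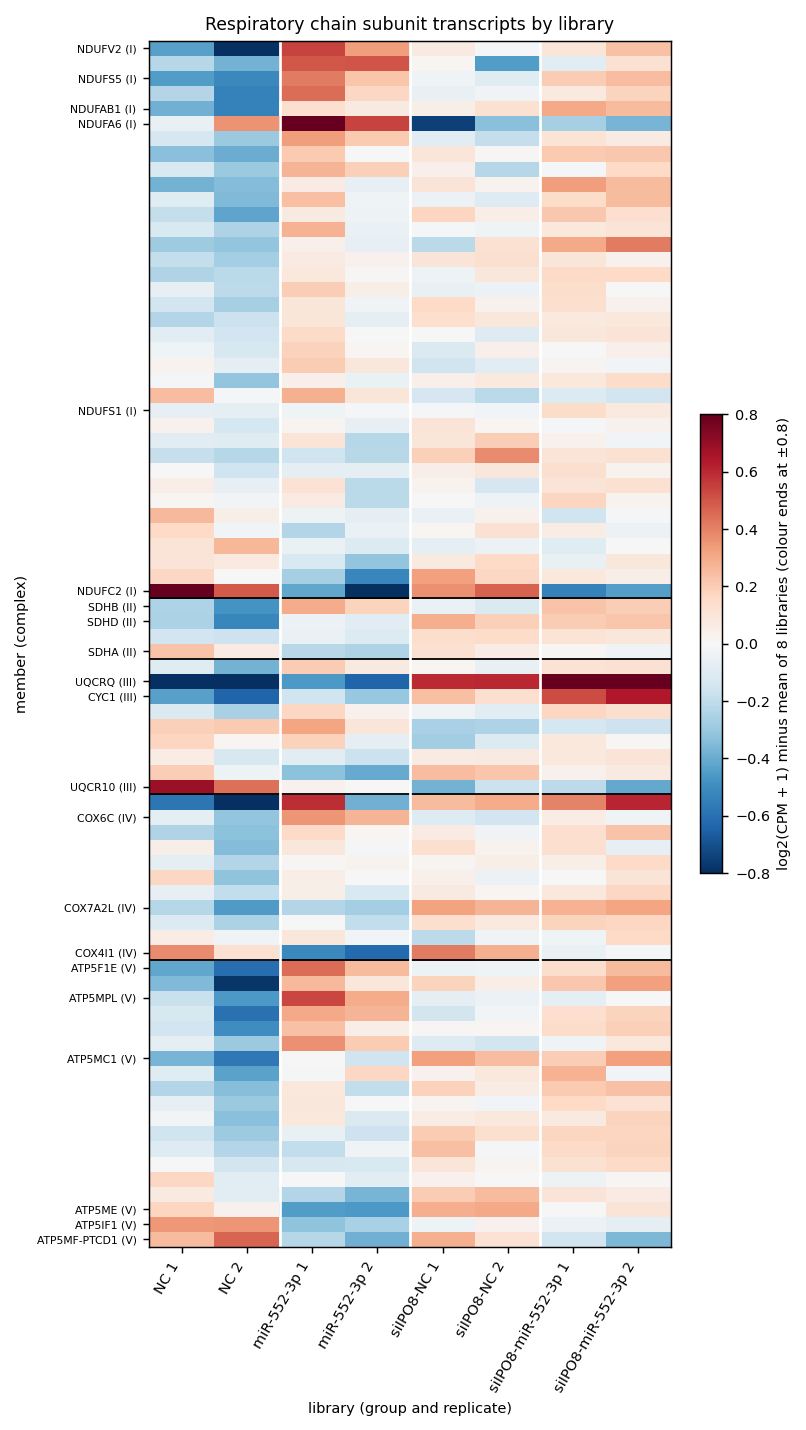
Log2(CPM + 1) of each member with a mean of at least 100 counts minus its mean over the 8 libraries (columns), ordered within each complex by the mimic's change under control siRNA, with selected rows labelled. NC columns, NC replicate 2 above all, are below the mean for most members, while UQCR10, COX4I1, NDUFC2, ATP5IF1 and ATP5MF-PTCD1 show the opposite pattern in NC.

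In complex I, the module that takes electrons from NADH held the largest rise. NDUFV2, its iron-sulfur subunit next to the flavin, had 64.0 and 48.4 CPM in the NC libraries, 127 and 110 with the mimic, 91.5 and 86.1 with importin8 siRNA, and 93.2 and 102 with both agents. NC was lowest and the mimic group highest, with no overlap between either and the siRNA groups. It rose with the mimic under control siRNA by 1.08 ± 0.13 (log2 fold change ± SE, adjusted p = 0.000191) and with importin8 siRNA by 0.66 ± 0.13 (adjusted p = 0.00415). Under importin8 siRNA the mimic's change was 0.14 ± 0.13 (adjusted p = 0.47). NDUFV1, the subunit that binds NADH and flavin, rose in the same 2 comparisons by 0.29 (adjusted p = 0.00225) and 0.35 (adjusted p = 0.000912).

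NDUFC2, a small subunit of the membrane arm, showed the largest fall. It had 52.7 and 39.4 CPM in the NC libraries, 20.6 and 15.2 with the mimic, 36.1 and 38.9 with importin8 siRNA, and 18.8 and 20.3 with both agents. Both mimic groups lay below both groups without mimic. The change was -1.36 ± 0.17 with control siRNA (adjusted p = 0.00028) and -0.94 ± 0.17 with importin8 siRNA (adjusted p = 0.00517), and the difference between these effects did not pass the test (0.42 ± 0.25, adjusted p = 0.25). This gene shares exons with the readthrough gene NDUFC2-KCTD14, to which more reads were assigned (129 ± 6.29 CPM in NC against 46.1 ± 9.41, SD, n = 2). The readthrough gene changed by -0.36 (adjusted p = 0.00367) and -0.24 (adjusted p = 0.049) in the same comparisons. The sum of both stood at 67.8% of NC with the mimic, and at 77.4% of siIPO8-NC with both agents, and reads of the shared exons cannot be told apart.

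NDUFA6, an accessory subunit of the LYR family that binds the acyl carrier protein, moved in opposite directions with the mimic and the siRNA. Its levels were 12.5 and 17.05 CPM in the NC libraries, 24.8 and 19.4 with the mimic, 7.36 and 10.2 with importin8 siRNA, and 10.7 and 9.87 with both agents. Both siRNA groups lay below both groups with control siRNA, and miR-552-3p lay above NC. With importin8 siRNA it fell by 1.10 on the log2 scale in the presence of the mimic (SE 0.20, adjusted p = 0.00321) and by 0.76 in its absence (SE 0.21, adjusted p = 0.0158). The second call was lost without NC replicate 2 (-0.51, adjusted p = 0.0956) and without siIPO8-NC replicate 1 (-0.54, adjusted p = 0.1). Its rise with the mimic under control siRNA (0.58, adjusted p = 0.0311) was lost without NC replicate 1 (0.37, adjusted p = 0.165), miR-552-3p replicate 1 (0.40, adjusted p = 0.19) or either library of the double treatment (adjusted p = 0.0525 and 0.053).

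NDUFAB1, the mitochondrial acyl carrier protein, and NDUFS5, a subunit on the intermembrane side, rose with either agent given alone. NDUFAB1 had 64.0 and 57.3 CPM in the NC libraries, 92.2 and 88.1 with the mimic, 86.7 and 91.4 with importin8 siRNA, and 104 and 100.3 with both agents. NC was lowest and the double treatment highest. NDUFS5 had 32.4 and 30.8 CPM in the NC libraries, 59.6 and 52.0 with the mimic, 43.5 and 41.4 with importin8 siRNA, and 51.4 and 53.0 with both agents, so here the 2 mimic groups overlapped. The rises of NDUFAB1 were 0.57 ± 0.07 with the mimic and 0.55 ± 0.07 with the siRNA (adjusted p = 5.77e-05 and 0.000121), and those of NDUFS5 were 0.82 ± 0.08 and 0.43 ± 0.08 (adjusted p = 1.05e-05 and 0.00159).

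Other complex I genes that rose with the mimic under control siRNA in every alternative run included NDUFB3 (0.85), NDUFA12 (0.72 ± 0.12), NDUFA9 (0.49), NDUFB4 (0.45) and NDUFS4 (0.38). NDUFA12, an accessory subunit, had 22.3 and 17.8 CPM in the NC libraries, 36.3 and 29.7 with the mimic, 25.3 and 25.9 with importin8 siRNA, and 28.03 and 30.03 with both agents, so NC was lowest and the 2 mimic groups overlapped. NDUFB5, of the membrane arm, had 37.2 and 33.1 CPM in the NC libraries, 27.3 and 22.7 with the mimic, 41.8 and 37.1 with importin8 siRNA, and 35.01 and 34.2 with both agents. The mimic group with control siRNA was lowest, at -0.49 ± 0.10 against NC (adjusted p = 0.00243). Importin8 siRNA raised NDUFB5 in the presence of the mimic by 0.47 (adjusted p = 0.0067), a call lost without miR-552-3p replicate 2 (0.35, adjusted p = 0.0546). NDUFB2, another membrane arm subunit, had 13.01 and 12.7 CPM in the NC libraries, 16.5 and 15.3 with the mimic, 13.6 and 17.5 with importin8 siRNA, and 20.003 and 21.7 with both agents. The double treatment was highest, and the rise with the mimic under importin8 siRNA was 0.42 ± 0.12 (adjusted p = 0.0258). That call was lost without siIPO8-NC replicate 1 (0.25) or either double-treated library. It was also lost with DESeq2, with library totals alone and on FPKM (0.20, adjusted p = 0.174).

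Complex II, which oxidises succinate and belongs to the citrate cycle as well, split between its subunits under the mimic. SDHB, the iron-sulfur subunit, had 49.9 and 42.4 CPM in the NC libraries, 73.4 and 67.5 with the mimic, 57.2 and 54.7 with importin8 siRNA, and 69.9 and 68.2 with both agents. The 2 mimic groups were highest and overlapped each other. It rose with the mimic by 0.61 ± 0.08 under control siRNA (adjusted p = 0.000123) and by 0.30 ± 0.08 under importin8 siRNA (adjusted p = 0.0189). The second call did not hold without any one of the 4 siIPO8 libraries (0.27 to 0.34, adjusted p = 0.054 to 0.12). SDHA, the flavoprotein subunit, had 144 and 128 CPM in the NC libraries, 105 and 103 with the mimic, 133 and 128 with importin8 siRNA, and 124 and 120 with both agents. It was lowest in the mimic group with control siRNA and fell there by 0.39 on the log2 scale (SE 0.07, adjusted p = 0.000689).

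The membrane anchors of complex II rose with importin8 siRNA. SDHD had 51.4 and 42.6 CPM in the NC libraries, 59.4 and 58.0 with the mimic, 75.5 and 70.1 with importin8 siRNA, and 71.1 and 71.8 with both agents, both siRNA groups above both others. Its rise was 0.63 ± 0.09 with the control mimic (adjusted p = 0.000195) and 0.28 ± 0.09 with the mimic (adjusted p = 0.0278). The second rise missed the threshold without any one of the miR-552-3p and siIPO8-miR-552-3p libraries (0.27 to 0.30, adjusted p = 0.0844 to 0.115). SDHC rose by 0.31 (adjusted p = 0.00118) with the control mimic.

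Complex III held the largest rise in reads, in UQCRQ, a small subunit that contacts cytochrome b. UQCRQ had 54.2 and 54.5 CPM in the NC libraries, 73.1 and 64.6 with the mimic, 153 and 154 with importin8 siRNA, and 177 and 185 with both agents. Both siRNA groups were far above both others, at 1.497 ± 0.07 (adjusted p = 1.96e-07) with the control mimic and 1.39 ± 0.07 (adjusted p = 1.03e-06) with the mimic. The deposited FPKM of the same gene did not show this: 34.7 and 35.4 in the NC libraries, 49.0 and 43.9 with the mimic, 40.0 and 37.2 with importin8 siRNA, and 43.7 and 52.2 with both agents. On log2(FPKM + 0.1) the siRNA changes were 0.14 (adjusted p = 0.245) and 0.04 (adjusted p = 0.752). The transcript length that count and FPKM together imply was 1598 and 1459 bases in NC and miR-552-3p, and 4042 and 3664 bases in the siRNA groups. Read counts and level per length thus gave different answers for this gene. With the mimic UQCRQ rose by 0.34 under control siRNA (adjusted p = 0.00216) and by 0.24 under importin8 siRNA (adjusted p = 0.0229), the latter lost without any one of the 4 siIPO8 libraries (0.21 to 0.28, adjusted p = 0.0531 to 0.116).

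Such a shift was rare among the members. The implied length differed more than 1.5-fold between groups in 1 of 81 members with at least 1 FPKM (1.23%), and in 2.76% of 10720 tested genes. The next members were NDUFV3, ATP5IF1 and COX7A2L, at 1.36, 1.34 and 1.34. NDUFV3, a subunit of the NADH module with a long and a short form, rose with the mimic under control siRNA by 0.23 in counts (adjusted p = 0.0319), a call lost on leaving out miR-552-3p replicate 1 or NC replicate 1 (adjusted p up to 0.232), and its mean FPKM differed by 0.61 (log2 ratio).

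**Figure D4:**
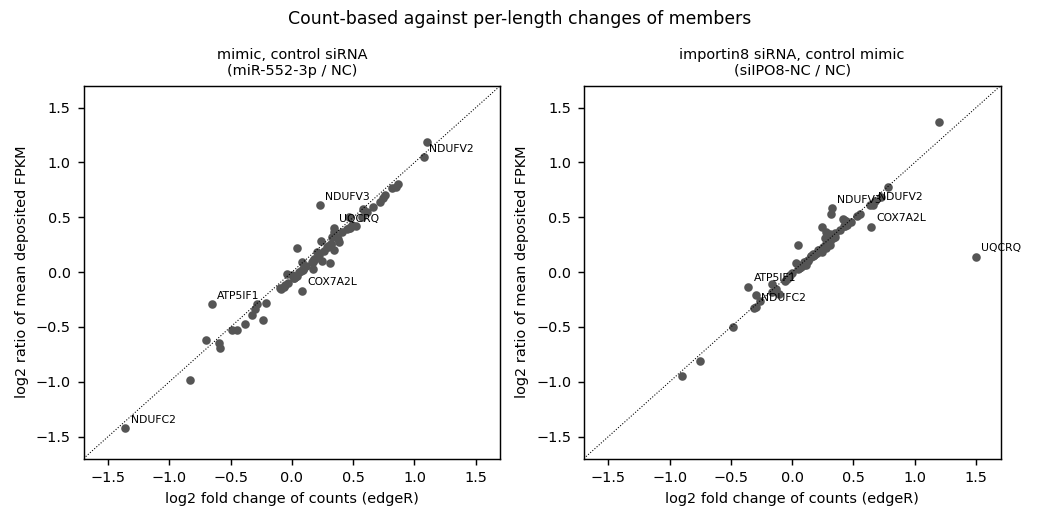
Log2 ratio of mean deposited FPKM (vertical axis) against log2 fold change of counts (horizontal axis) for the 81 members with at least 1 FPKM, with the line of equal change, for the mimic under control siRNA and for importin8 siRNA with the control mimic. Most points lie near the line, and UQCRQ lies far to its right in the siRNA panel (1.497 in counts, 0.14 in FPKM).

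CYC1, cytochrome c1, which passes electrons to cytochrome c, rose with importin8 siRNA on both scales. It had 117 and 101 CPM in the NC libraries, 142 and 128 with the mimic, 187 and 174 with importin8 siRNA, and 228 and 247 with both agents. The 4 groups did not overlap, in that order. The siRNA effect was 0.73 ± 0.09 (adjusted p = 9.02e-05) with the control mimic and 0.81 ± 0.09 (adjusted p = 7.44e-05) with the mimic, and both calls held in every alternative. The mimic's effect under importin8 siRNA was 0.40 ± 0.09 (adjusted p = 0.00645), lost without siIPO8-NC replicate 2 (0.35, adjusted p = 0.0631). Under control siRNA it was 0.31 ± 0.09 (adjusted p = 0.0124), lost without NC replicate 2 (0.20, adjusted p = 0.0753) or miR-552-3p replicate 1 (0.24, adjusted p = 0.096).

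UQCR10, a small subunit of complex III, went the other way. It had 20.7 and 17.2 CPM in the NC libraries, 12.8 and 12.4 with the mimic, 9.33 and 10.9 with importin8 siRNA, and 10.6 and 9.11 with both agents. All 6 libraries with an active agent lay below both NC libraries. The log2 changes were -0.59 ± 0.13 for the mimic (adjusted p = 0.00306) and -0.90 ± 0.13 for importin8 siRNA (adjusted p = 0.000324). UQCR11, also small, fell with importin8 siRNA by 0.48 with the control mimic (adjusted p = 0.00335), from 17.0 and 17.2 CPM to 12.2 and 12.3. With the mimic its levels were 18.6 and 15.9 CPM against 13.3 and 13.05 (-0.39, adjusted p = 0.0153), a call lost without miR-552-3p replicate 1 (-0.27, adjusted p = 0.135) or either double-treated library (adjusted p = 0.0711 and 0.0855).

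The core proteins of complex III diverged under the mimic. UQCRC2 fell by 0.45 on the log2 scale (adjusted p = 0.000938), from 293 and 248 CPM in NC to 203 and 193 in miR-552-3p, while UQCRC1 rose by 0.29 (adjusted p = 0.0068), a call lost without miR-552-3p replicate 1 (adjusted p = 0.0596). Importin8 siRNA raised UQCRC2 in the presence of the mimic by 0.42 (adjusted p = 0.00319), to 261 and 269 CPM. UQCRH, the hinge protein, had 76.2 and 62.6 CPM in the NC libraries, 93.8 and 85.8 with the mimic, 82.3 and 78.3 with importin8 siRNA, and 88.5 and 88.8 with both agents. NC was lowest, and the rise with the mimic was 0.37 ± 0.09 (adjusted p = 0.00545). Its retrocopy UQCRHL took only 0.855 to 2.11 CPM. UQCRFS1, the Rieske iron-sulfur protein, changed by -0.10 with the mimic under control siRNA (adjusted p = 0.275).

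Complex IV, cytochrome c oxidase, had the lowest share of calls under the mimic with control siRNA (4 of 13). COX4I1 is the widely expressed form of the subunit IV that starts the assembly of the enzyme. With the mimic under control siRNA it fell most among complex IV members with a mean of at least 100 counts. It had 131 and 109 CPM in the NC libraries, 69.8 and 64.9 with the mimic, 134 and 122 with importin8 siRNA, and 96.6 and 99.2 with both agents. The mimic group with control siRNA was lowest and the double-treated group lay between it and the groups without mimic. It changed by -0.83 ± 0.09 (log2, adjusted p = 2.73e-05) under control siRNA and by -0.39 ± 0.09 (adjusted p = 0.00864) under importin8 siRNA. The second was lost without siIPO8-NC replicate 1 (-0.32, adjusted p = 0.0699) or siIPO8-miR-552-3p replicate 1 (-0.36, adjusted p = 0.0619). COX4I2, its isoform of lung and hypoxia, had 13 and 10 counts in the NC libraries, 1 and 0 with the mimic, 4 and 3 with importin8 siRNA, and 3 and 1 with both agents, too few for a fold to be given (adjusted p = 0.00829 for the fall with the mimic, up to 0.0689 over the alternatives and lost on leaving out miR-552-3p replicate 2 or NC replicate 1).

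COX7A2L, which helps join complexes III and IV into supercomplexes, rose with importin8 siRNA. It had 83.2 and 71.0 CPM in the NC libraries, 82.7 and 80.8 with the mimic, 122 and 118 with importin8 siRNA, and 119 and 121 with both agents. Both siRNA groups lay above both others (0.64 ± 0.08, adjusted p = 7.92e-05, and 0.55 ± 0.08, adjusted p = 0.000363), and the lowest values over the alternatives, 0.42 and 0.30, were those on log2(FPKM + 0.1). With the mimic under control siRNA the counts changed by 0.08 (adjusted p = 0.37), while the FPKM changed by -0.17 (adjusted p = 0.0314), and under importin8 siRNA by -0.29 (adjusted p = 0.00648). COX7A2, the related subunit of the enzyme itself, ranged from 8.55 CPM in NC replicate 2 to 32.1 in siIPO8-miR-552-3p replicate 2, with 31.6 and 15.6 in miR-552-3p, and passed no test. The other isoforms of general tissues were steadier: COX6A1 lay between 108 and 142 CPM and COX6B1 between 54.7 and 70.5 over the 8 libraries, with NC replicate 2 lowest for each, and no comparison called either.

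COX6C, a small regulatory subunit, had 28.2 and 23.7 CPM in the NC libraries, 38.3 and 36.2 with the mimic, 27.7 and 26.6 with importin8 siRNA, and 31.1 and 29.04 with both agents. The mimic group with control siRNA stood above the other 6 libraries, and the rise was 0.52 ± 0.09 (adjusted p = 0.00074). Against that group it fell with importin8 siRNA by 0.31 (adjusted p = 0.0267), a call lost without any one of those 4 libraries (-0.26 to -0.36, adjusted p = 0.0615 to 0.154). COX8A had 70.6 and 66.4 CPM in the NC libraries, 93.1 and 84.2 with the mimic, 87.5 and 81.7 with importin8 siRNA, and 91.8 and 97.8 with both agents, with NC lowest. It rose with the mimic by 0.37 (adjusted p = 0.00143) and with importin8 siRNA by 0.31 (adjusted p = 0.00633), the latter lost without siIPO8-NC replicate 1 (adjusted p = 0.0573). COX5A, which with COX5B faces the matrix, rose with importin8 siRNA by 0.29 (adjusted p = 0.0115), lost without NC replicate 2 or siIPO8-NC replicate 1 (adjusted p up to 0.0714).

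In complex V, the epsilon subunit showed the largest rise with the mimic. ATP5F1E, the epsilon subunit of the central stalk, had 71.1 and 62.0 CPM in the NC libraries, 130 and 113 with the mimic, 92.5 and 92.9 with importin8 siRNA, and 105 and 113 with both agents. NC was lowest. It rose with the mimic by 0.87 ± 0.09 (adjusted p = 1.29e-05) and with importin8 siRNA by 0.48 ± 0.09 (adjusted p = 0.00127). ATP5F1A and ATP5F1B, the alpha and beta subunits of the catalytic head, changed by -0.05 (adjusted p = 0.549) and 0.22 (adjusted p = 0.0486) with the mimic under control siRNA, and the second call was lost in 10 of 16 alternatives, which include leaving out any one library other than NC replicate 1 (adjusted p 0.00174 to 0.22 over the alternatives).

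ATP5IF1, the inhibitor that blocks ATP hydrolysis by the synthase, fell. It had 57.0 and 57.1 CPM in the NC libraries, 35.5 and 37.1 with the mimic, 43.3 and 45.7 with importin8 siRNA, and 43.1 and 42.3 with both agents. The mimic group was lowest and NC highest, and the change with the mimic under control siRNA was -0.65 ± 0.06 (adjusted p = 1.18e-05). It was -0.29 on log2(FPKM + 0.1), where the call held. The change with importin8 siRNA, -0.36 ± 0.06 (adjusted p = 0.00109), was -0.13 on that scale (adjusted p = 0.13). The implied length of this gene was 1465 bases in NC and 1091 in miR-552-3p.

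The c-ring genes, 3 genes for 1 mature protein, all rose with importin8 siRNA. ATP5MC1 had 21.0 and 18.2 CPM in the NC libraries, 27.6 and 24.6 with the mimic, 34.8 and 32.8 with importin8 siRNA, and 31.8 and 34.8 with both agents. Both siRNA groups lay above both others. The rises with the control mimic were 0.78 ± 0.10 for ATP5MC1, 0.39 ± 0.07 for ATP5MC2 and 0.41 ± 0.09 for ATP5MC3 (adjusted p = 0.000111, 0.00099 and 0.00426), and all 3 held in every alternative. With the mimic ATP5MC1 rose by 0.41 ± 0.10 (adjusted p = 0.00492).

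The subunits at the membrane dimer interface differed in direction. ATP5MPL, a small membrane protein of the synthase, had 21.5 and 17.6 CPM in the NC libraries, 36.0 and 30.3 with the mimic, 23.3 and 23.7 with importin8 siRNA, and 23.2 and 24.5 with both agents. The mimic group with control siRNA stood above all other libraries, at 0.76 ± 0.11 (adjusted p = 0.000223) over NC. Importin8 siRNA lowered it against that group by 0.48 (adjusted p = 0.00861), but not without miR-552-3p replicate 1 (-0.34, adjusted p = 0.0829) or siIPO8-miR-552-3p replicate 1 (-0.44, adjusted p = 0.0658). ATP5ME, subunit e, had 20.4 and 18.5 CPM in the NC libraries, 12.9 and 12.8 with the mimic, 22.2 and 22.4 with importin8 siRNA, and 18.0 and 19.4 with both agents. It was lowest in the mimic group with control siRNA (-0.59 ± 0.09, adjusted p = 0.000283) and rose against it with importin8 siRNA (0.54 ± 0.09, adjusted p = 0.00136). ATP5MG, subunit g, and ATP5MD rose with the mimic by 0.47 and 0.66, and the peripheral stalk subunits ATP5PD and ATP5PB by 0.74 and 0.47.

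ATP5MF-PTCD1, a readthrough gene that shares exons with ATP5MF (subunit f), fell with the mimic. It had 20.8 and 24.3 CPM in the NC libraries, 14.6 and 13.1 with the mimic, 21.3 and 18.8 with importin8 siRNA, and 15.6 and 13.3 with both agents. Both mimic groups lay below both groups without mimic (-0.70 ± 0.12, adjusted p = 0.000629, and -0.48 ± 0.12, adjusted p = 0.0143). The second call was lost without siIPO8-NC replicate 1 (-0.38, adjusted p = 0.104) or siIPO8-miR-552-3p replicate 2 (-0.35, adjusted p = 0.135). The sum of ATP5MF and ATP5MF-PTCD1 stood at 98.7% of NC with the mimic, and reads of the shared exons cannot be told apart.

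**Figure D5:**
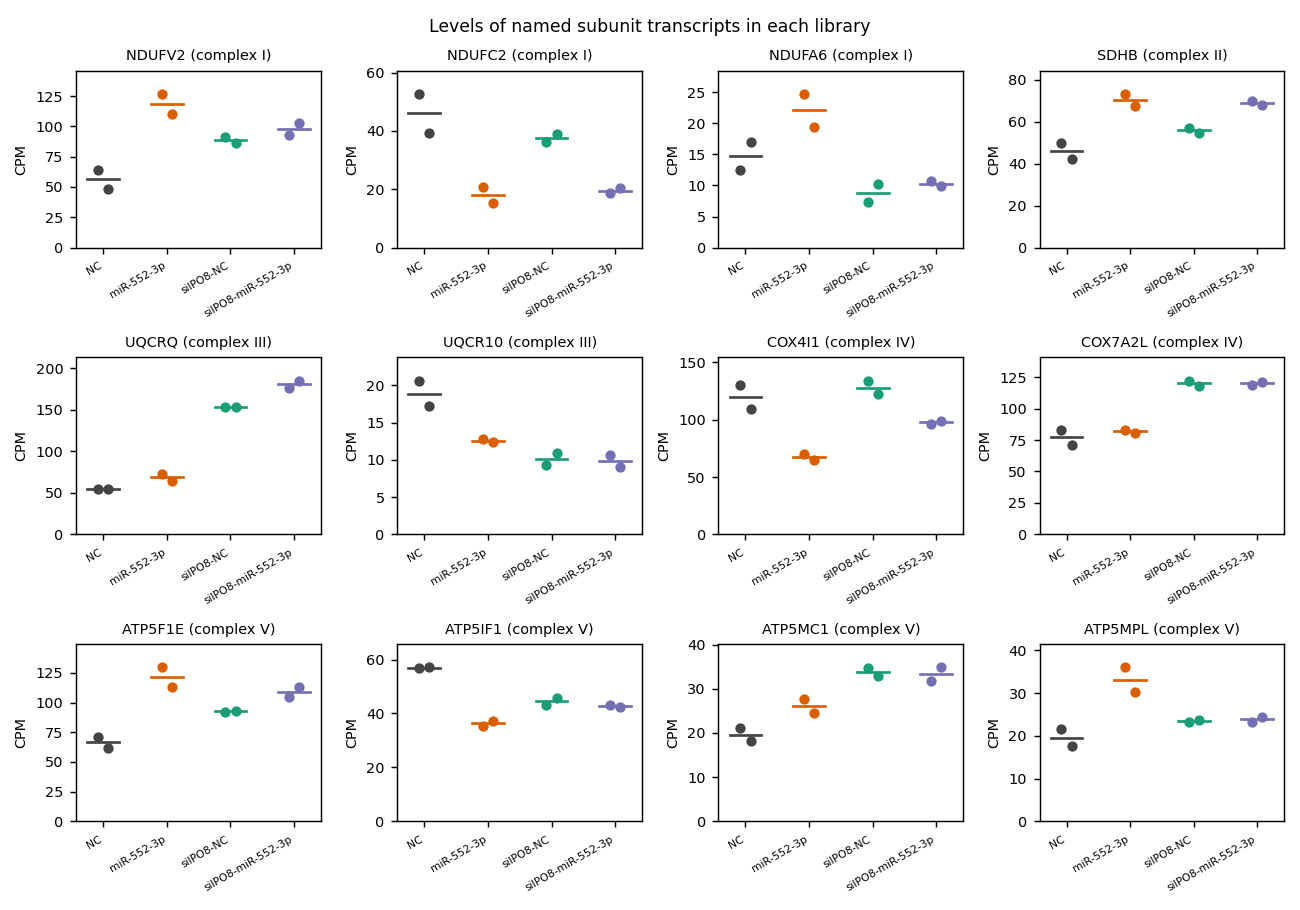
CPM (vertical axis, from 0) of 12 named members in the 2 libraries of each group (points), with a bar at the group mean. UQCRQ and COX7A2L separate by siRNA, NDUFC2 separates by mimic, and NDUFV2, ATP5F1E and ATP5MPL are highest in the mimic group with control siRNA.

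The difference between the mimic's effect under importin8 siRNA and under control siRNA was tested directly. It passed for 11 members, 3 higher and 8 lower (13.3%; 31.3% of all tested genes, 14.2% higher and 17.1% lower), with a median of -0.10. The lower ones were NDUFV2 (-0.94 ± 0.18, adjusted p = 0.00636), ATP5MPL (-0.74 ± 0.16, adjusted p = 0.00595), ATP5F1E (-0.63 ± 0.12, adjusted p = 0.00316), NDUFA12 (-0.54), NDUFS5 (-0.52 ± 0.11, adjusted p = 0.00561), ATP5MC1 (-0.43), NDUFAB1 (-0.38) and NDUFV1 (-0.34). All 8 rose with the mimic under control siRNA, and of them NDUFS5 alone passed the test under importin8 siRNA, by 0.30 (adjusted p = 0.016), a call lost without siIPO8-NC replicate 2 or either double-treated library (adjusted p = 0.0532 to 0.111). The higher ones were ATP5IF1 (0.59 ± 0.09, adjusted p = 0.000836), COX4I1 (0.44 ± 0.13, adjusted p = 0.0246) and SDHA (0.29 ± 0.10, adjusted p = 0.0451), all lowered by the mimic under control siRNA. NDUFV2, ATP5MPL, ATP5F1E and NDUFS5 passed in all 15 alternatives. ATP5IF1 missed the threshold on FPKM alone (0.26, adjusted p = 0.0681), and the other 6 calls were lost without 1 or more single libraries (largest adjusted p 0.143 for NDUFA12, 0.142 for ATP5MC1, 0.148 for SDHA, 0.0912 for COX4I1, 0.0649 for NDUFAB1 and 0.0563 for NDUFV1). The members called lower were 19 without NC replicate 1, 5 without miR-552-3p replicate 1 or siIPO8-NC replicate 2 and 4 without siIPO8-miR-552-3p replicate 2. Those called higher were 6 without NC replicate 2 and 1 without miR-552-3p replicate 2, and likewise without each double-treated library. The median was -0.02 without NC replicate 2, -0.04 without miR-552-3p replicate 1, and -0.16 on leaving out miR-552-3p replicate 2 or NC replicate 1.

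The mimic's effects in the 2 siRNA arms rest on separate libraries. They had the same sign in 66 of 83 members (79.5%, against 74.6% of all tested genes), and Pearson's r across members was 0.77, against 0.51 across all tested genes, as a description over genes that share libraries. The absolute effect was larger under control siRNA in 70 of 83 members (84.3%, against 74% of all tested genes), with medians of 0.31 and 0.14. The 8 members called in both arms moved the same way in each, 5 higher and 3 lower, as did 4668 of the 4855 genes called in both. The siRNA's effects with and without mimic shared the sign in 55 of 83 members (66.3%, against 61.2%), with r of 0.16 against 0.21 across all tested genes. Of the 17 members called in both, 16 moved the same way, 13 higher and 3 lower, as did 2970 of 3973 genes. The r values of the members, for the mimic and for the siRNA, include the sparsely counted COX4I2. It was the lowest member with the mimic under control siRNA and can weigh heavily on r, which was not computed without it.

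Genes that serve the chain without being subunits were counted from lists written for this purpose. The shares of all tested genes called higher and lower, beside which these counts stand, were 28.9% and 29.5% for the mimic under control siRNA, 15% and 16.7% under importin8 siRNA, 25.4% and 21.6% for importin8 siRNA alone, and 17.3% and 16.2% for importin8 siRNA with the mimic. Of 48 assembly factors, 17 rose and 10 fell (35.4% and 20.8%) in the first of these comparisons, 6 and 7 (12.5% and 14.6%) in the second, 23 and 2 (47.9% and 4.17%) in the third, and 7 and 3 (14.6% and 6.25%) in the last, with medians of 0.12, -0.03, 0.28 and 0.05. NDUFAF2, an assembly factor of complex I, rose with the mimic by 1.04 and 0.62 in the 2 arms. Of 17 regulators of mitochondrial biogenesis, 6 rose and 5 fell (35.3% and 29.4%), 1 and 3 (5.88% and 17.6%), 7 and 1 (41.2% and 5.88%), and 5 and 1 (29.4% and 5.88%) in the same order (medians 0.02, -0.06, 0.19 and 0.14). PPARGC1A, the coactivator PGC-1alpha, fell with the mimic by 1.16 and 0.61 on the log2 scale in the 2 arms. TFAM, which packages and transcribes mitochondrial DNA, rose with importin8 siRNA by 0.85 and 0.81, and fell with the mimic by 0.35 and 0.39. NRF1 itself fell with the mimic under control siRNA by 0.47. The regulators named here all fell in that comparison, and none of the 6 that rose is named. Changes of the pathway genes were not followed over the alternatives.

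Of 11 genes for the mobile carriers cytochrome c and coenzyme Q, 1 rose and 3 fell, 0 and 3, 5 and 1, and 4 and 0 in those comparisons, so 36.4%, 27.3%, 54.5% and 36.4% were called against 58.4%, 31.7%, 47% and 33.5% of all tested genes (medians 0.09, -0.22, 0.22 and 0.18). CYCS, cytochrome c, changed by 0.17 with the mimic under control siRNA (adjusted p = 0.197) and passed none of the tests. COQ8A, a kinase-like protein needed for coenzyme Q synthesis, fell with the mimic by 1.91 under control siRNA and by 0.56 under importin8 siRNA. Of 17 citrate cycle and pyruvate dehydrogenase genes, 7 rose and 4 fell, 1 and 3, 12 and 2, and 7 and 2, which is 64.7%, 23.5%, 82.4% and 52.9% called against the same shares of all tested genes (medians 0.04, -0.01, 0.35 and 0.12). CS, citrate synthase, fell in all 4 comparisons, by 0.88, 1.00, 0.44 and 0.56 on the log2 scale. MDH2, malate dehydrogenase, rose by 0.97 with the mimic and by 0.94 with importin8 siRNA when each was given alone.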

How the data were processed

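The deposited table pairs an expected count (an estimate that need not be whole) with an FPKM in every library, per the file headers. There the second value is headed as expression, and its scale was taken as FPKM from the values. Per the submitters' processing notes, the tools were RSEM 1.2.8, Bowtie2 2.2.5 and HISAT2 2.0.4 on GRCh38.p12, with no role given. Libraries were assigned by their titles; the abbreviated column names were matched to these. The labels do not say that replicates were separate cultures, and the p-values then reflect only how these libraries vary, which may be technical. Replicates were not duplicates of 1 library: a chi-square of their counts, divided by its degrees of freedom, gave 4.53 to 10.6.

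Expected counts were rounded, filtered with filterByExpr (17715 genes) and scaled by TMM, with factors of 0.961 to 1.06. A model with 4 group means covered the 8 libraries, tested by the robust quasi-likelihood F test of edgeR 4.0.16 in R 4.3.3. Calls needed an adjusted p (Benjamini-Hochberg, all tested genes) under 0.05. An approximate SE was taken as the log2 fold change, without sign, divided by the root of F. Reads shared between overlapping or near-identical genes were divided by the authors' quantification. Use of strand in counting is not stated in the labels. Alternatives were DESeq2 1.42.0, limma-voom (limma 3.58.1), DESeq2 size factors, library totals alone, no filter, limma on log2(FPKM + 0.1) for genes with at least 1 FPKM in 2 libraries, only the 4 libraries compared, a replicate block and leaving out each library. The scripts were tested on simulated data. Bases are from GENCODE v29 on GRCh38 (UTR sites) and RefSeq on GRCh38.p14 (promoters, miRNA).

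Values in every library are given for IPO8, for the called member with the largest rise and fall per complex and comparison among those with a mean of at least 100 counts, for the 6 largest called differences between mimic effects, and for the isoform sets of complex IV, some of them as ranges. A few more members, and the pathway genes named as examples, were chosen after their values were seen. Members, lists and this rule were chosen with earlier results of these data known. Marker lists of other cell types were summed per library: fibroblast 8.58 to 19.8 CPM, endothelial 19.5 to 81.2 (highest in NC), blood 0.188 to 2.02 and muscle 0.482 to 21.1 (highest in miR-552-3p). Their part in the results was not tested. None of the 13 listed mitochondrially encoded subunits was matched, and they were not analysed here. Some items are not reported here.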

Additional observations from a re-analysis of the deposited data

Results flagged for a closer look

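For 11 members the mimic's effect differed between the 2 siRNA arms by the test of the difference itself (log2, effect under importin8 siRNA minus effect under control siRNA). In complex I these were NDUFV2 (-0.94), NDUFA12 (-0.54), NDUFS5 (-0.52), NDUFAB1 (-0.38) and NDUFV1 (-0.34), and in complex II SDHA (0.29). COX4I1 of complex IV differed by 0.44. In complex V they were ATP5MPL (-0.74), ATP5F1E (-0.63), ATP5IF1 (0.59) and ATP5MC1 (-0.43). The groups hold 2 libraries each, so no rule for outlying values within a group was applied. Single libraries were examined only by comparing replicates and by leaving out each library.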

How the results depend on the processing

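Of 158 recomputed counts of called members, 118 lay within 1.5 times the count given. The share of all tested genes called differed between these fits as well, so the counts do not describe the members alone. With library totals alone, the mimic under importin8 siRNA raised 2 and lowered 7, and the difference between mimic effects was lower for 13. On FPKM the mimic under importin8 siRNA lowered 8 members and the difference was lower for 13. With only the 4 libraries compared, the mimic under importin8 siRNA raised 17 and lowered 5. In that comparison the share of all genes tested in the fit that were called was 31.7% as given. It was 32.4% with library totals alone, 37.8% on FPKM and 39.3% with only the 4 libraries compared. With DESeq2, importin8 siRNA lowered 4 with the control mimic, and raised 12 and lowered 3 with the mimic. Of the 26612 genes entered there, 24.8% and 16.4% were called in these comparisons. Leaving out each library gave 23 to 38 higher and 9 to 14 lower for the mimic with control siRNA, 1 to 12 and 1 to 5 for the mimic under importin8 siRNA, 20 to 39 and 3 to 7 for importin8 siRNA with the control mimic, 9 to 23 and 1 to 9 for importin8 siRNA with the mimic, and 1 to 6 and 4 to 19 for the difference. Over all tested genes, same-numbered libraries did not deviate together (correlations -0.01 to 0.11 over 6 pairs of groups). The numbers were therefore not taken to pair libraries. Among the 83 members, 72 and 75 were higher in replicate 1 of NC and miR-552-3p. In siIPO8-NC and siIPO8-miR-552-3p, 47 and 33 were. Pairing was not tested for the members alone. With a replicate block the difference was lower for 16 members, and no other count moved by more than 1.5 times. COX7A2L with the mimic under control siRNA reversed on FPKM (-0.17). Of the calls given, 31 of 50, 1 of 9, 20 of 34, 7 of 29 and 4 of 11 held in every alternative, in the order of the comparisons above. Several calls described above as lost without a library were also lost with DESeq2. For the mimic these included COX4I2 and NDUFV3 under control siRNA, and NDUFB2, NDUFS5 and ATP5MF-PTCD1 under importin8 siRNA. For importin8 siRNA with the mimic they included SDHD, UQCR11 and COX6C, and for the difference NDUFA12, ATP5MC1, SDHA and NDUFV1. The cause of these changes was not tested, except that leaving out a library also leaves 1 sample in a group, which is then assumed to vary like the others. The number of libraries, 2 a group, limits the precision of every value.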
